A study of Mus musculus with 60 samples.

Results

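A set of 7 GABA-A receptor subunit genes was examined, namely Gabra2, Gabra3, Gabra4, Gabra5, Gabrb1, Gabrb2 and Gabrd, listed by symbol and each found as a single entry. These 7 entries were part of 47597 in every expression table, and all 7 passed the filter on low values (a mean of at least 0.5 rescaled FPKM over the 60 libraries) with 16076 entries in all. A further 9 genes of the receptor family and 16 genes of the GABA synapse were listed as a setting for them.

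GABA-A receptors are chloride channels opened by the inhibitory transmitter GABA. Each receptor is a ring of subunits, usually α and β subunits with a γ or δ subunit, and the choice of subunit sets where the receptor sits and how it responds. Receptors with the α2 product of Gabra2 or the α3 product of Gabra3 are mostly synaptic, whereas the products of Gabra4, Gabra5 and Gabrd are best known from extrasynaptic receptors that carry a tonic current. The β subunits encoded by Gabrb1 and Gabrb2 help to form the GABA binding site and link the receptor to intracellular partners.

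RNA-Seq had been performed on cortex and striatum of C57BL-6N mice aged 3 months. Mice belonged to a Δ12 line, with an engineered deletion within a single exon of Htt, the huntingtin gene, or to a KO line, which came from a founder whose imprecise deletion also removed a splice donor. The 10 labelled groups were +/+, Δ12/+ and Δ12/Δ12 of the Δ12 line and +/+ and KO/+ of the KO line, each in both tissues, with 6 libraries a group (3 labelled male and 3 labelled female). All groups shared the strain and age, the labels name no agent, and the title and genotype label of 1 library named different lines.

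Marker transcripts went against many labels. The libraries were therefore also divided by the cortical transcript Slc17a7, a vesicular glutamate transporter, into 30 cortex-like libraries (over 100 FPKM) and 30 striatum-like libraries (the rest). The lowest cortex-like library held 121 FPKM of Slc17a7 and the highest striatum-like library 64.8 FPKM. This class matched the labelled tissue in 30 of 60 libraries, and the transcripts Xist and Ddx3y matched the labelled sex in 30 of 60. The cortex-like class held every +/+ and Δ12/+ library of the Δ12 line and 3 of 6 Δ12/Δ12 libraries in either labelled tissue, while the whole KO line was striatum-like. Each class comprised 15 libraries labelled cortex and 15 labelled striatum. The striatal dopamine receptor transcript Drd2 ranged from 0 to 15.9 rescaled FPKM in the cortex-like class and from 34.8 to 71.3 in the striatum-like class. All 6 markers of striatal projection neurons were higher in every striatum-like library than in any cortex-like library. Htt itself, the targeted gene, ranged from 16.6 to 20.7 rescaled FPKM in the 12 KO-line +/+ libraries and from 12.7 to 20.0 in the 12 KO/+ libraries, so those ranges overlapped. The class was set by a measured transcript, and class values below are a description without a test.

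Gabra5 differed most between the classes. Rescaled FPKM (fragments normalized to transcript length and library size, scaled between libraries by median of ratios) of Gabra5 ran from 8.91 through a median of 15.8 to 19.1 in the cortex-like libraries and from 3.27 through 4.77 to 6.60 in the striatum-like libraries. Gabra3 ran from 12.8 through 17.9 to 20.6 in the cortex-like class and from 4.89 through 8.23 to 11.2 in the striatum-like class. For both α subunits every striatum-like library lay below every cortex-like library, and the medians stood 3.31-fold and 2.17-fold higher in the cortex-like class.

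Gabrb1 was arranged the other way. Its rescaled FPKM ran from 2.54 through 6.52 to 10.7 in the cortex-like class and from 13.8 through 16.8 to 20.5 in the striatum-like class. No striatum-like library fell to the cortex-like range, and the median was 2.57-fold higher in the striatum-like class. Among all 16076 entries the classes did not overlap in 19.3% that were higher in the striatum-like class, against 1 of 7 subunits, and in 16.9% that were lower, against 2 of 7 subunits. Complete separation was thus common in these libraries, and so was not particular to the receptor genes.

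Classes overlapped for the other 4 subunits, with the higher median in the cortex-like class each time. Gabra4 spanned 43.7 to 88.6 rescaled FPKM (median 61.7) in the cortex-like class and 30.7 to 47.2 (median 38.7) in the striatum-like class, and 26 of 30 striatum-like libraries lay below the lowest cortex-like library. Gabra2 spanned 17.8 to 34.0 (median 25.3) against 14.8 to 23.9 (median 18.9), with 9 of 30 striatum-like libraries below the cortex-like range. Gabrd spanned 25.7 to 41.4 (median 34.6) against 19.2 to 35.7 (median 26.1), with 15 of 30 below. Gabrb2, whose highest cortex-like library stood apart at 78.2, spanned 33.7 to 78.2 (median 45.5) against 26.9 to 49.3 (median 35.8), with 8 of 30 below. The median log2 class difference (striatum-like minus cortex-like) over the 7 subunits was −0.41, and over all 16076 entries it was 0.03. In tissue RNA, fewer cells of a type and less RNA per cell cannot be told apart.

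**Figure D1:**
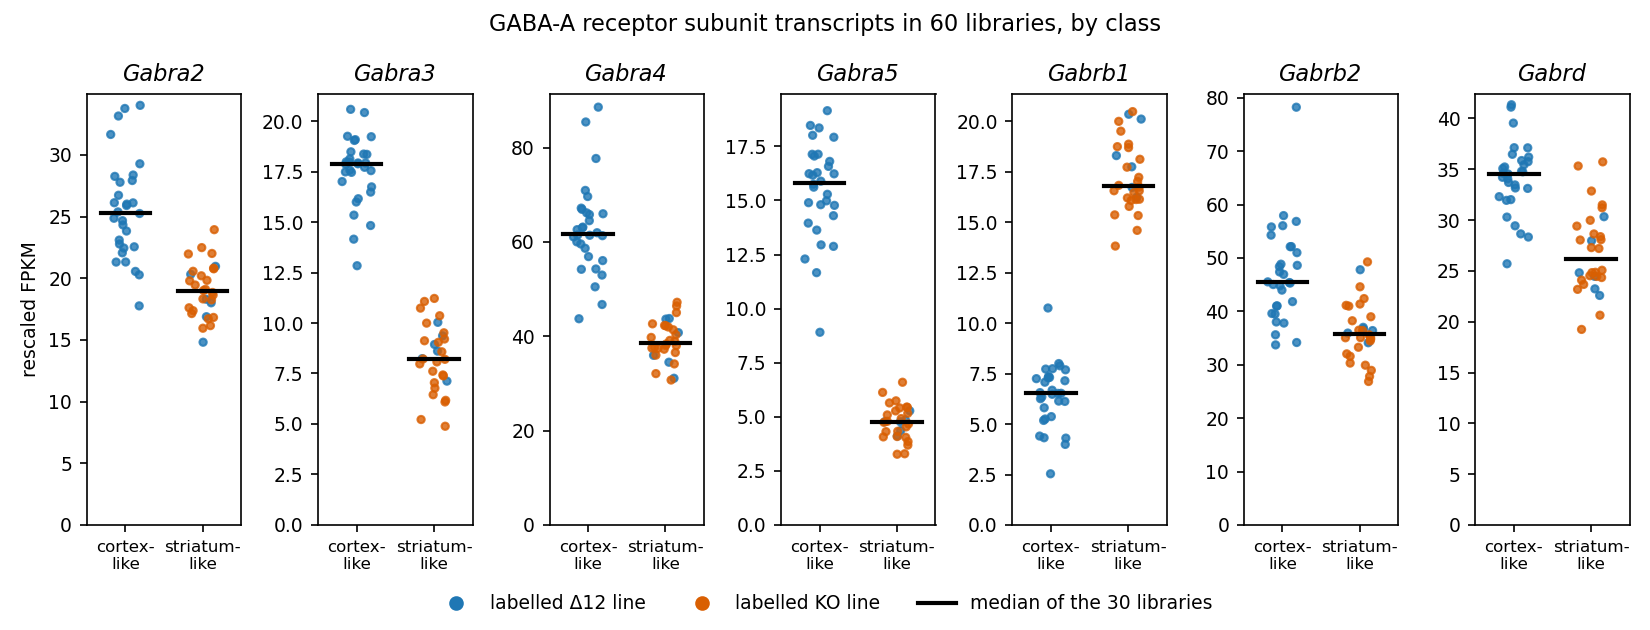
Rescaled FPKM (vertical axes, linear, from 0) of the 7 subunits in each of 60 libraries, by class, with blue points for the labelled Δ12 line, orange points for the labelled KO line and a bar at the median. Gabra3 and Gabra5 were lower and Gabrb1 higher in all 30 striatum-like libraries than in any cortex-like library, and for these 3 genes the 6 blue points in the striatum-like class lay within the range of the orange ones.

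The Δ12/Δ12 libraries allowed the classes to be set side by side within the same labelled genotype, although there the class coincided with the labelled sex. Gabrb1 ran from 3.99 to 7.69 rescaled FPKM in the 6 cortex-like Δ12/Δ12 libraries and from 16.2 to 20.3 in the 6 striatum-like ones. In the 24 striatum-like libraries of the KO line it ran from 13.8 to 20.5. Gabra5 ran from 15.0 to 18.0 in the cortex-like and from 4.11 to 5.27 in the striatum-like Δ12/Δ12 libraries, beside 3.27 to 6.60 in the KO line. The ranges of Gabra3 were 17.5 to 19.2, 7.12 to 10.0 and 4.89 to 11.2 in the same order. For these 3 genes the striatum-like Δ12/Δ12 libraries lay within the range of the KO line.

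The order of the transcript levels per length was Gabra4, Gabrb2, Gabrd, Gabra2 at the top of both classes. The lower places differed, with Gabra3, Gabra5 and Gabrb1 following in the cortex-like class and Gabrb1, Gabra3 and Gabra5 in the striatum-like class. Gabra4 exceeded Gabrb2 in 27 of 30 cortex-like libraries and in 20 of 30 striatum-like libraries, and Gabra2 exceeded Gabrb1 in 23 of 30 striatum-like libraries, so these neighbours were not separated in every library. Ranges of neighbours overlapped everywhere in the order except between Gabrb1 and Gabra3 in the striatum-like class.

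Composition was then expressed as the share of each gene in the summed rescaled FPKM of the 7 subunits, which leaves other subunits of the receptor out of the sum. That sum had a median of 207 rescaled FPKM (range 180 to 239) in the cortex-like class and 154 (range 126 to 168) in the striatum-like class, without overlap. The 4 listed α subunits together had a median of 121 (range 96.4 to 145) and 70.6 (range 63.3 to 82.0), again without overlap, whereas the 2 listed β subunits overlapped at medians of 52.5 and 52.6.

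Gabrb1 was the member whose share separated the classes. Shares and ratios were not recomputed after centring on transcript length and GC content, described further on, where the classes of Gabrb1 overlapped. It made up 1.13% to 5.44% of the sum (median 3.12%) in the cortex-like libraries and 9.00% to 14.1% (median 11.5%) in the striatum-like libraries. Within a library the ratio of Gabrb2 to Gabrb1, the listed β subunits, ran from 4.50 through a median of 7.03 to 17.3 in the cortex-like class and from 1.52 through 2.10 to 3.06 in the striatum-like class. The ranges of the other 6 shares overlapped. Gabra4 held the highest median share in both classes (30.1% and 25.5%), followed by Gabrb2 (22.0% and 23.7%), Gabrd (16.4% and 17.2%) and Gabra2 (12.0% and 12.7%). Gabra5 had a median share of 7.64% in the cortex-like class and 3.22% in the striatum-like class, and Gabra3 one of 8.37% and 5.44%.

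**Figure D2:**
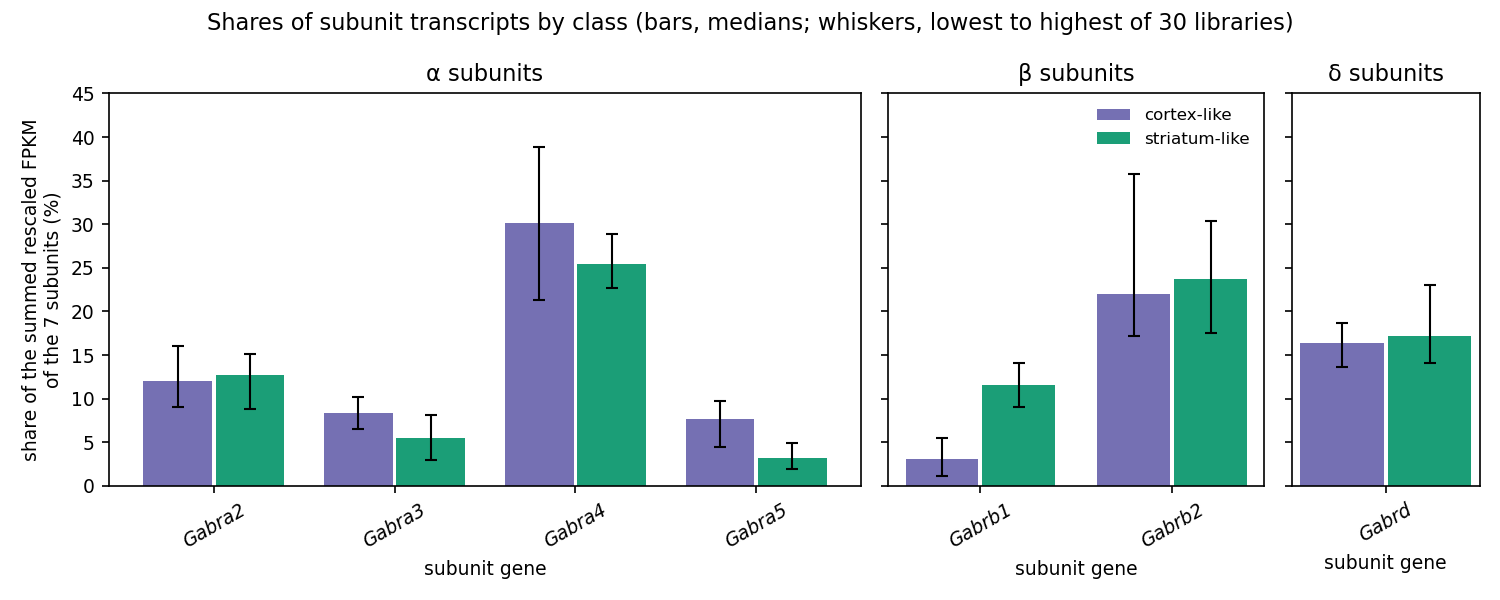
Share (%) of each gene in the summed rescaled FPKM of the 7 subunits (vertical axis), with bars at the median and whiskers from the lowest to the highest of the 30 libraries in a class. Whiskers of Gabrb1 did not overlap between classes, whereas those of Gabra2, Gabrb2 and Gabrd covered much the same values. Shares were not recomputed after centring on length and GC content.

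Of the 9 other family genes, 2 passed the filter and 7 (Gabra6, Gabre, Gabrp, Gabrq, Gabrr1, Gabrr2 and Gabrr3) did not. The γ subunit gene Gabrg1 was lower in every striatum-like library, with a median level of 14.5 rescaled FPKM in the cortex-like class and 5.01 in the striatum-like class. Gabrg3, also a γ subunit gene, was higher in every striatum-like library, at 5.29 against 12.0. Of the 16 GABA synapse genes, 11 were higher and 1 lower in every striatum-like library, with a median log2 class difference of 1.26. Among all 16076 entries, 19.3% were higher and 16.9% lower without overlap, with a median difference of 0.03. The 5 genes of GABA synthesis and transport all separated in that direction, among them Gad1 (73.2 against 153), which makes GABA, and Slc32a1 (14.0 against 65.1), which loads it into vesicles. Transcripts for breakdown of GABA, Abat (31.5 against 83.2) and Aldh5a1 (3.59 against 15.1), did likewise. Among genes of anchoring and trafficking, Nlgn2 (11.6 against 40.0), Lhfpl4 (2.75 against 19.3) and Shisa7 (3.00 against 26.4) were higher, Gabarap (114 against 37.0) was lower, and the scaffold Gphn (17.3 against 17.5) overlapped. The neuronal chloride exporter Slc12a5 (36.2 against 71.1) was higher, whereas Slc12a2 (9.69 against 17.3) and the GABA-B receptor genes Gabbr1 (105 against 146) and Gabbr2 (13.0 against 15.8) overlapped. After centring on transcript length and GC content, described with the length of transcripts further on, 6 rather than 11 of the 16 genes were higher without overlap and the median difference was 0.82. Over all 15986 entries with a length and GC content, 2268 were higher without overlap after centring. The difference of Slc12a5 then was −0.02 in place of 0.96 with overlapping classes, and Gabbr1 (−0.36 in place of 0.47) and Gabbr2 (−0.84 in place of 0.28) reversed.

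Other cell type markers moved with the classes. Interneuron markers (Pvalb, Sst and Vip, 3 of 3 lower in every striatum-like library) summed to 303 to 554 rescaled FPKM in the cortex-like class and 104 to 160 in the striatum-like class, but after centring only Vip stayed separate, while Pvalb (−0.63 in place of −1.52) and Sst (−0.33 in place of −1.37) overlapped. Choroid plexus markers (3 of 3 overlapping) summed to 1.47 to 371 and 30.6 to 2054, oligodendrocyte markers (2 used) to 185 to 323 and 370 to 606, and astrocyte markers (3 of 3 overlapping) to 96.6 to 159 and 84.8 to 116. Of the thalamic markers 1 of 3 was higher without overlap, with sums of 4.11 to 8.14 and 3.34 to 34.4, and the dentate gyrus markers summed to 0 to 2.85 and 4.11 to 9.42, where of the 2 that passed the filter Prox1 was higher without overlap and C1ql2 overlapped. The part of these cells in the subunit differences was not tested.

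The class difference also moved with transcript length. Over 15986 entries with a length, its Spearman correlation with the length of the longest annotated transcript was 0.37 (a description across genes, which share libraries and are not independent). The median log2 difference was −0.49 in the quintile of entries with the shortest transcripts and 0.65 in that with the longest, and for the 543 longest entries (minimum 9000 nt) it was 0.87 (quartiles 0.11 and 1.47). Gabrb1 had the longest transcript of the 7 subunits, 13737 nt, and Gabrg3, the other subunit gene that was higher without overlap in the striatum-like class, had 9767 nt. The remaining subunits of the list had 2671 nt (Gabra5), 2707 nt (Gabrd), 3662 nt (Gabra3), 3989 nt (Gabrb2), 4108 nt (Gabra4) and 5852 nt (Gabra2). After each library was centred on the median of entries of like length and GC content, the class difference of Gabrb1 was 0.83 in place of 1.30 and its classes overlapped, and that of Gabrg3 was 0.62 in place of 1.11, also with overlap. That of Gabra5 was −1.34 in place of −1.63 and that of Gabra3 was −0.96 in place of −1.07, both still without overlap. Such separation stayed common after centring, with 2631 of the 15986 entries lower and 2268 higher, beside 2 and 0 of the 7 subunits. Gabrd moved from −0.40 to −0.64, and all 7 kept their direction.

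**Figure D3:**
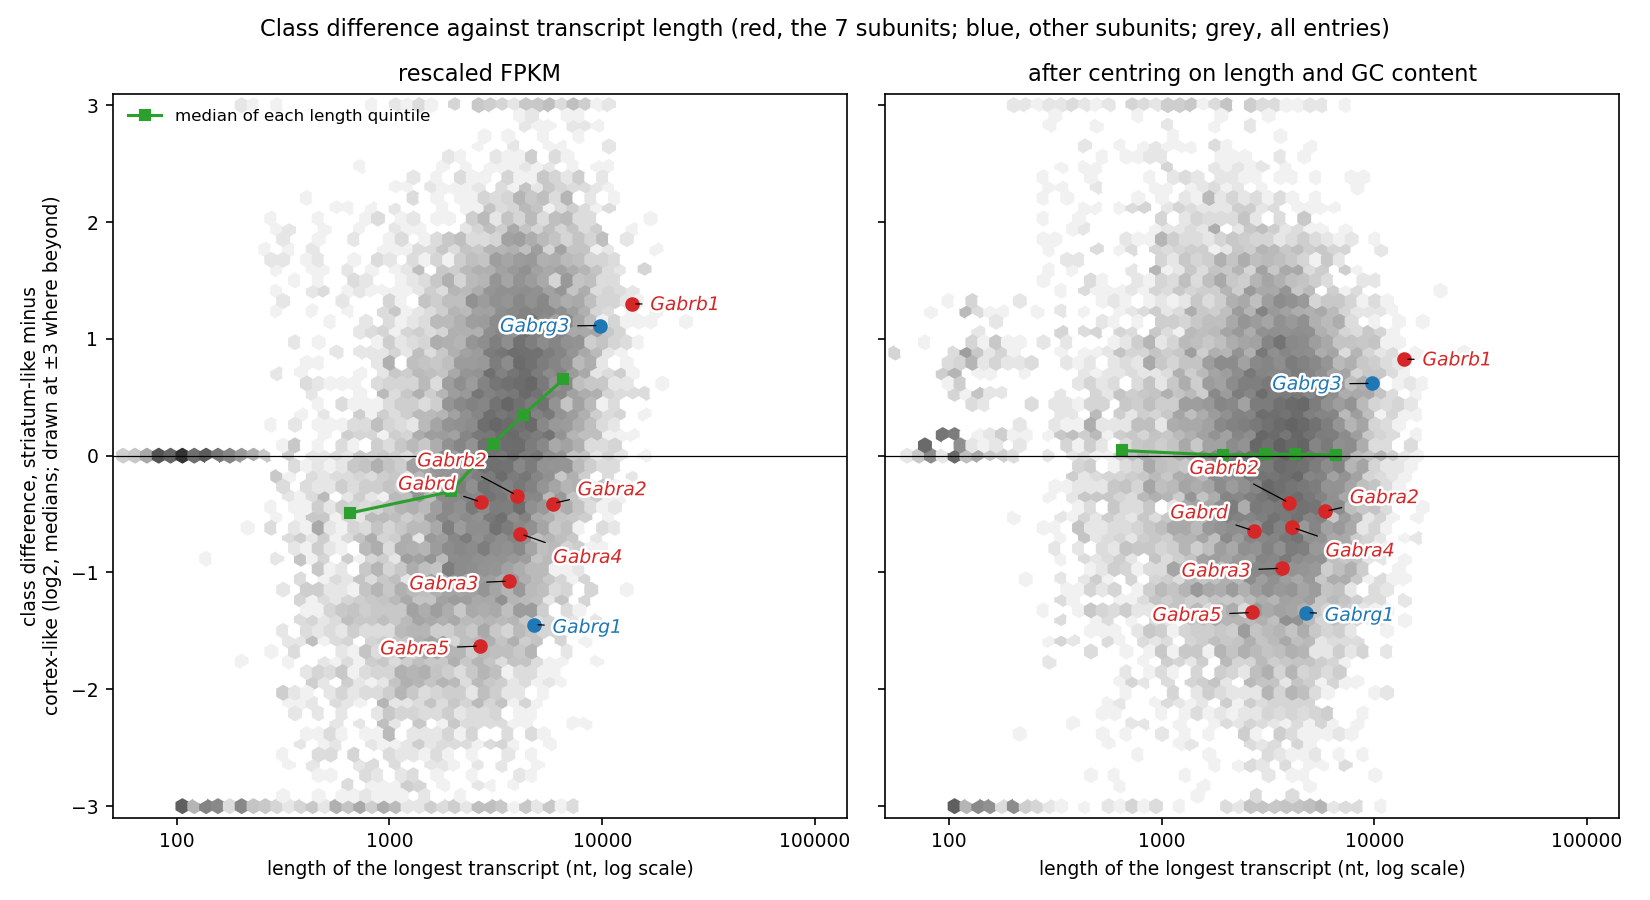
Class difference (striatum-like minus cortex-like, log2, vertical axis) against the length of the longest transcript (nt, log axis) for 15986 entries in grey, the 7 subunits in red and other subunits in blue, with green squares at the median of each length quintile, before (left) and after (right) centring on length and GC content. On the left the quintile medians ran from −0.49 to 0.65 and Gabrb1 and Gabrg3 lay at the long end, and on the right these medians were level while Gabrb1 stayed above 0 at 0.83.

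Of the 7 subunits, 3 lie in 1 cluster (GRCm38, coordinates as in the files and counted from 1). Gabra2 (5:70957597-71095849, minus strand) and Gabra4 (5:71569749-71658308, minus strand) lie on chromosome 5 in this order before Gabrb1 (5:71658113-72149037, plus strand). The starts of Gabra4 and Gabrb1 overlap head to head by 196 bases, of which 46 are exonic in both, out of 6083 exonic bases of Gabra4 and 13838 of Gabrb1. Whether strand was used in counting is not given in the sources used here, so reads in these 46 bases cannot be assigned with certainty. Although they share this start region, the medians of these genes differed in opposite directions, and the ratio of Gabra4 to Gabrb1 within a library ran from 5.46 to 27.5 (median 9.61) in the cortex-like class and from 1.80 to 3.09 (median 2.28) in the striatum-like class. Gabra5 (7:57407672-57510059, minus strand), Gabrb2 (11:42419757-42629028, plus strand), Gabra3 (X:72432681-72656848, minus strand) and Gabrd (4:155384980-155398112, minus strand) lie elsewhere.

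Upstream sequences are shown for the 3 genes whose classes did not overlap, so that their start regions can be compared. Each is the 250 bases before a RefSeq start (GRCm38.p6), 5′ to 3′ on the strand of the gene, with any match to the searched motifs in capitals.
Gabra3 (chrX:72656920-72657169, minus strand): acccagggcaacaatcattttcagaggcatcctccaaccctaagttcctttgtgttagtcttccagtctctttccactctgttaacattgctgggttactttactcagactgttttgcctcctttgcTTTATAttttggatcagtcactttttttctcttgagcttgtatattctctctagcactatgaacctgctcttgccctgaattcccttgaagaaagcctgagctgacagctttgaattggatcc
Gabra5 (chr7:57510060-57510309, minus strand): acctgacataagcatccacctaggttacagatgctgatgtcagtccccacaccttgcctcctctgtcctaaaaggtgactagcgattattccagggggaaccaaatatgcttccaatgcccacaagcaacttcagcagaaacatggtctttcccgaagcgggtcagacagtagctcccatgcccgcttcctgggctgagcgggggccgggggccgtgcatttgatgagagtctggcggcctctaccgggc
Gabrb1 (chr5:71699682-71699931, plus strand, the more downstream of 2 annotated starts): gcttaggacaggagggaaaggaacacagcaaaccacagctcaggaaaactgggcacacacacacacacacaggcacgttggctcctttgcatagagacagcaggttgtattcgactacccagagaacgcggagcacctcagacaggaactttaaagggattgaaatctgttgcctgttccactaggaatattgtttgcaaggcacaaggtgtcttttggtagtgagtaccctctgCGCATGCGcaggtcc
Windows were found for 6 of 7 subunits. The motifs searched on both strands were the GC box GGGCGG, the core of the NRF1 motif CGCATGCG and the TATA box TATAAA, held by 32.7%, 1.55% and 12.4% of all 32851 windows. The Gabra3 window held a TATA box on the opposite strand and 0 CpG dinucleotides, a feature of 7.87% of all windows. The Gabra5 window held 9 CpG dinucleotides and none of the 3 motifs, and the Gabrb1 window shown held 6 CpG dinucleotides and the NRF1 core. The window of the more upstream Gabrb1 start (chr5:71657671-71657920), which lies within Gabra4 and is not printed, held 18 CpG dinucleotides and none of the 3 motifs. These matches describe letters in the windows only.

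For genotype, limma was fitted to all entries after a log2 transform with 0.5 added, a term for labelled sex was included, and p-values were adjusted over every entry by the method of Benjamini and Hochberg. The question was whether the Htt alleles changed subunit transcripts relative to the +/+ mice of the same line. Because labelled tissue and sex each went against the transcripts in 30 of 60 libraries, the genotype labels may be crossed as well, and each difference is one between libraries as labelled. Gabrb2 was lower in KO/+ libraries labelled striatum, where it ran from 26.9 through a median of 33.0 to 39.0 rescaled FPKM, than in the +/+ libraries, where it ran from 35.1 through 41.9 to 49.3. The groups overlapped, and the log2 difference was −0.37 (SE 0.09, n = 6 and 6, limma adjusted p = 0.0427). It was 1 of 7 subunits called, beside 6.91% of all entries, and of the 2 other family genes tested neither was called (limma adjusted p = 0.116 for Gabrg1 and 0.525 for Gabrg3). The call of Gabrb2 was lost without the sex covariate (limma adjusted p = 0.0550), without the filter (0.0591), with FPKM as deposited (0.0501) and with a replicate block (0.120), and when any single library was left out (0.0614 to 0.0972) except +/+ male3, KO/+ male3 and KO/+ female1. Markers of other cells moved with this comparison. Drd2 ran from 50.0 to 66.8 rescaled FPKM in KO/+ and from 34.8 to 47.7 in +/+, and 4 of 6 striatal projection neuron markers were called higher in KO/+ (summed level 1033 to 1311 against 693 to 1011). All 3 thalamic markers were called lower (4.12 to 6.56 against 12.9 to 26.1), as was 1 of 2 tested oligodendrocyte markers (406 to 469 against 484 to 606), and 1 of 5 cortical excitatory markers was called higher (8.40 to 46.3 against 10.6 to 28.2). Of the remaining lists, 1 of 3 interneuron markers (104 to 131 against 129 to 153), 1 of 3 astrocyte markers (86.3 to 113 against 102 to 116) and 1 of 1 tested dentate gyrus marker (4.70 to 5.84 against 6.09 to 8.31) were called lower, and 0 of 3 choroid plexus markers were called in limma. Their part in the Gabrb2 difference was not tested. All 24 libraries of the KO line were striatum-like by their transcripts, so the labelled tissues could not be told apart by class.

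In the KO/+ libraries labelled cortex 0 of 7 subunits were called by limma and 0 had an unadjusted p under 0.05, beside 0.0885% of entries called. Gabrb2 there had a log2 difference of −0.12 (SE 0.09), and whether it differed from that in labelled striatum was not tested. The Δ12/+ libraries gave 0 of 7 in limma in both labelled tissues, with 0 (labelled striatum) and 1 (labelled cortex) at an unadjusted p under 0.05, beside 0.00663% and 0.0662% of entries. The member with the unadjusted p was Gabra5, at a log2 difference of 0.39 (SE 0.13, limma adjusted p = 0.432). Standard errors in the Δ12/+ comparisons reached 0.26, for Gabrb1 in labelled striatum. There the half-width of its 95% interval was 0.51 by the normal distribution, which is narrower than by the t distribution that limma used. The log2 difference of Gabrb1 there, −0.31, was not called, so differences of such a size could be missed at this spread.

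The Δ12/Δ12 groups mixed both classes. In labelled striatum 0 of 7 subunits were called by limma although 6 had an unadjusted p under 0.05, beside 28.3% of entries called. The smallest limma adjusted p was 0.0548, for Gabra4, which ran from 31.1 through 48.4 to 67.2 rescaled FPKM in Δ12/Δ12 and from 53.0 through 63.8 to 85.4 in +/+. The count of called subunits was 3 with FPKM as deposited and between 0 and 4 when single libraries were left out. It was 4 without +/+ male1, 3 without Δ12/Δ12 male1, 2 without +/+ male2, and 1 without Δ12/Δ12 male2 or male3. In labelled cortex 0 of 7 were called in limma and 1, Gabrd, had an unadjusted p under 0.05 (log2 difference −0.37, SE 0.13, limma adjusted p = 0.0807), beside 0.924% of entries. Each Δ12/Δ12 group held 3 cortex-like and 3 striatum-like libraries against 6 cortex-like +/+ libraries, and with class as an added term 0 subunits and 21 entries (labelled striatum) or 12 entries (labelled cortex) were called, with 1 subunit at an unadjusted p under 0.05 in each.

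The +/+ mice of the KO line were compared with those of the Δ12 line in the same way. Here line and class coincided fully and cannot be told apart. In labelled striatum, Gabra5 ran from 3.27 through 4.08 to 5.16 rescaled FPKM in the KO line and from 12.3 through 15.0 to 16.3 in the Δ12 line, without overlap. The log2 difference was −1.73 (SE 0.09, limma adjusted p = 1.13e-08). Gabrb1 ran from 15.4 through 17.7 to 20.5 and from 5.25 through 6.96 to 8.00, again without overlap, with a log2 difference of 1.33 (SE 0.10, limma adjusted p = 2.01e-07). After centring on length and GC content the difference was 0.77 for Gabrb1 and −1.49 for Gabra5, and both were still called. Gabra3 (−0.91), Gabra4 (−0.75), Gabra2 (−0.48) and Gabrd (−0.39) were also called lower, while Gabrb2 missed the threshold at −0.23 (limma adjusted p = 0.0525). Called were thus 5 lower and 1 higher of 7 subunits, beside 37.4% of entries lower and 41.9% higher.

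In labelled cortex the same comparison called 5 subunits lower and 1 higher, beside 31.6% of entries lower and 36.5% higher. Gabra5 differed by −1.22 (SE 0.14, limma adjusted p = 1.1e-05) and Gabrb1 by 1.28 (SE 0.10, limma adjusted p = 4.66e-07). Over 8 alternative settings of the processing, Gabrb1 ran from 0.68 to 1.33 and Gabra5 from −1.46 to −1.02. Gabra3 (−0.93), Gabra4 (−0.69), Gabrb2 (−0.53) and Gabrd (−0.49) were called lower, and Gabra2 missed the threshold at −0.22 (limma adjusted p = 0.0680). Of the 2 other family genes tested, Gabrg1 was called lower and Gabrg3 higher in either labelled tissue. Labelled striatum against labelled cortex over all 60 libraries gave 0 of 7 subunits and 0% of 16076 entries called in limma, with 0 subunits and 397 entries at an unadjusted p under 0.05. Subunit differences there lay between −0.07 and 0.07 on the log2 scale. Both labelled tissues held the same numbers of cortex-like and striatum-like libraries in each genotype group. This comparison therefore cannot show a difference between the classes.

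**Figure D4:**
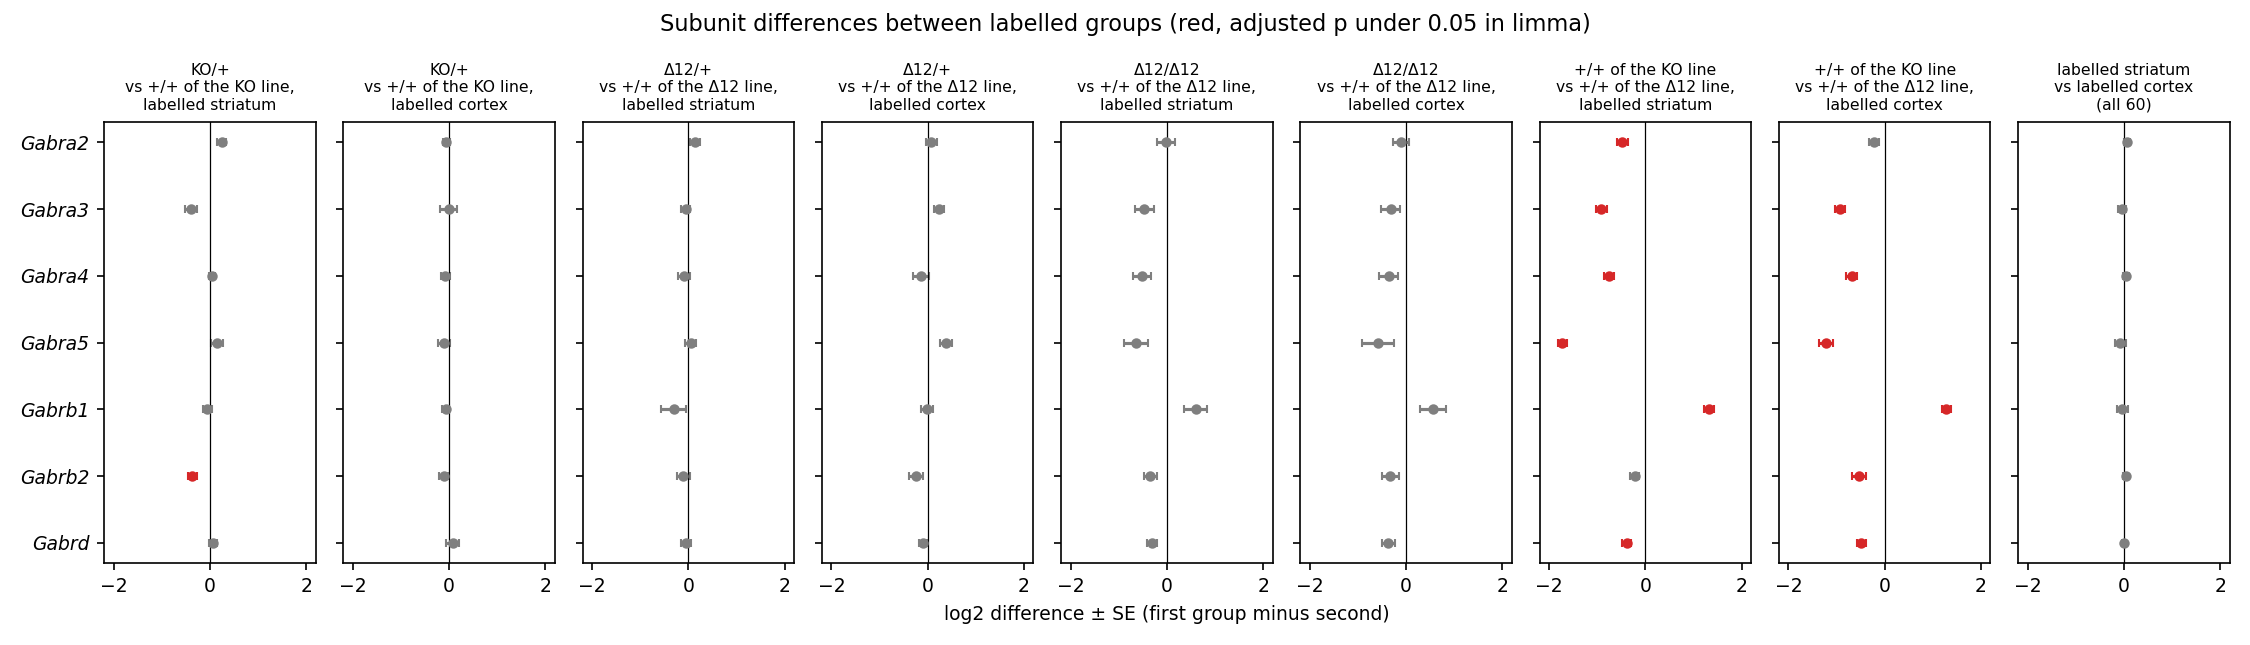
Log2 difference with its standard error (horizontal axes) of the 7 subunits in each of 9 comparisons of labelled groups, red where the limma adjusted p was under 0.05. Red points filled both comparisons between the +/+ mice of the lines except for Gabrb2 (labelled striatum) and Gabra2 (labelled cortex), and elsewhere stood only at Gabrb2 in KO/+ against +/+ of labelled striatum.

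Relations with the marker of the other tissue were examined within each class, in 14 relations. Slc17a7 had also set the classes, so its range within a class is limited by that choice. In the striatum-like class Gabra3 was higher where Slc17a7 was higher (Pearson r = 0.49, permutation p = 0.00565, adjusted p = 0.0395, and Spearman rho = 0.47, permutation p = 0.00902, adjusted p = 0.0631). Gabra4 ran against it (r = −0.59, permutation p = 0.00064, adjusted p = 0.00896, and rho = −0.52, permutation p = 0.00373, adjusted p = 0.0522). Without the 2 libraries farthest from the median of Slc17a7 the values of r were 0.38 and −0.43. With FPKM as deposited Gabra4 had an r of −0.30 (permutation p = 0.109, adjusted p = 0.344), or −0.09 without the 2 farthest libraries, so its call was lost, while Gabra3 had 0.52 (permutation p = 0.00305, adjusted p = 0.0427). Among the 24 libraries of the KO line r was 0.57 for Gabra3 (permutation p = 0.0041) and −0.73 for Gabra4 (permutation p = 4e-05), and among the 6 Δ12/Δ12 libraries it was 0.16 and −0.18 (exact permutation p = 0.764 and 0.721). The KO-line libraries pool +/+ with KO/+ and labelled males with females. Gabra4 ran from 37.3 to 42.2 in +/+, over Slc17a7 of 7.15 to 28.9 rescaled FPKM. In KO/+ Gabra4 ran from 30.7, in the library with the most Slc17a7, to 47.2, over Slc17a7 of 6.86 to 69.6. Relations within a genotype were not tested. The 30 libraries carry the names of 15 mice, so they are not all independent and these p-values may be too small. In the cortex-like class no relation with Drd2 passed the adjusted threshold, and the strongest was that of Gabra5 (r = −0.38, permutation p = 0.0432, adjusted p = 0.173), which was −0.20 without the 2 farthest libraries. The library farthest out, labelled striatum Δ12/+ male3, had 15.9 rescaled FPKM of Drd2 and 104 of Slc17a7.

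**Figure D5:**
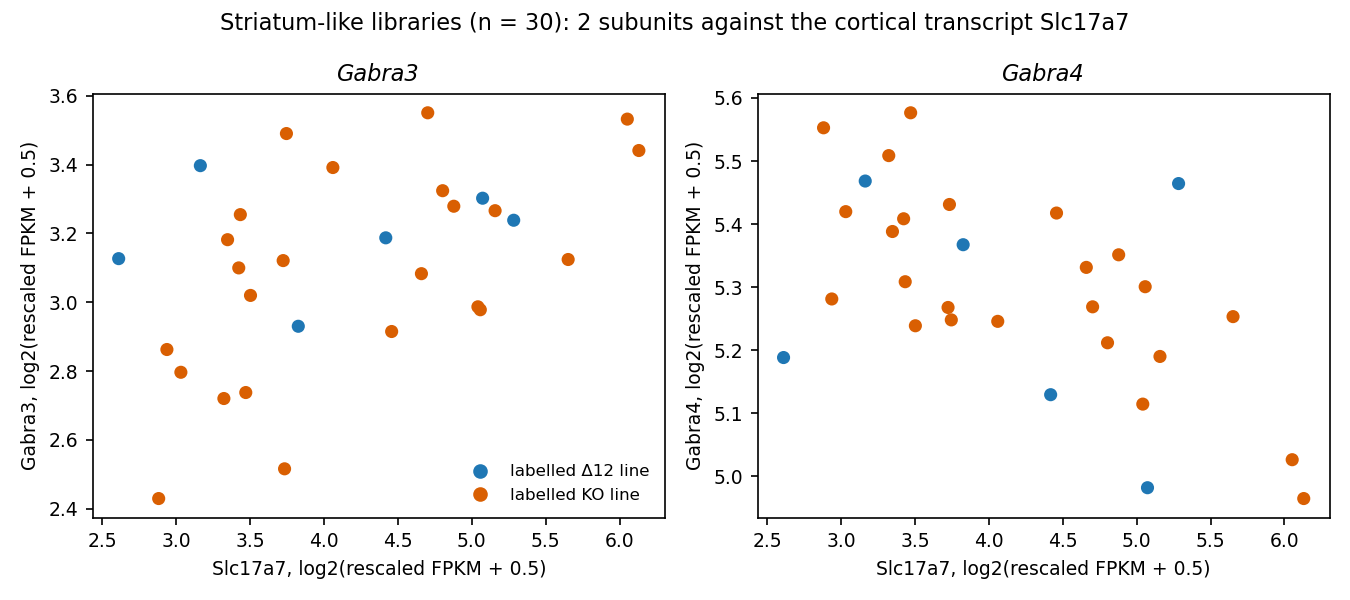
Gabra3 (left) and Gabra4 (right) against Slc17a7, all as log2(rescaled FPKM + 0.5), in the 30 striatum-like libraries, with the labelled KO line in orange and the labelled Δ12 line in blue. Gabra3 was higher and Gabra4 lower where Slc17a7 was higher, with r of 0.49 and −0.59, the latter −0.30 with FPKM as deposited.

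Genes with the most similar variation were sought over the 60 libraries after subtraction of the class means, among 8949 entries with a mean of at least 5 rescaled FPKM. Gabra3 was most like Vsnl1 (r = 0.80) and Nrn1 (0.77), Gabra2 most like Nalcn (0.75) and Atxn1 (0.74), and Gabrb2 most like Clasp2 (0.73) and Scn1a (0.71). Gabra4 was most like Rims2 (0.71) and Gm5815 (0.71), Gabra5 most like Pgrmc1 (0.62) and Rcan1 (0.60), and Gabrd most like Abhd14a (0.61) and Mat2b (0.59). These are the highest of many correlations and are given as a description.

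Precision differed among the subunits. The 95% interval deposited with each FPKM had a median half-width of 21.2% of the value for Gabrb1 in the cortex-like class and of 13.2% in the striatum-like class. For Gabra4 it was 5.90% and 6.73%, and the other 5 subunits lay between these genes in the cortex-like class. These intervals cover uncertainty within a library only, and the highest value of Gabrb1 was 4.24-fold its lowest in the cortex-like class and 1.48-fold in the striatum-like class. Depth estimated from the intervals was 12700000 to 19400000 fragments in the cortex-like class and 16400000 to 27500000 in the striatum-like class.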

How the data were processed

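RNA from cortex and striatum was depleted of ribosomal RNA, made into directional libraries and sequenced by the authors. The submitters' notes name bcl2fastq 2.20, Trimmomatic 0.30, TopHat2 2.0.14, SAMtools 1.3, HTSeq 0.6.1p1 and build GRCm38.p4. The authors deposited 60 tables of FPKM with confidence bounds, and the 23 of 47597 entries with a status other than OK were left out. FPKM were rescaled by median of ratios over the 13235 entries above 0 in every library. The 10 highest entries of a library held 28.3% to 92.3% (median 76.6%) of its summed FPKM. The scaling factors had a median of 1.15 in the cortex-like class and 0.89 in the striatum-like class. Labelled groups were compared with limma 3.58.1 in R 4.3.3 on log2(rescaled FPKM + 0.5), with the labelled sex as covariate, entries with a mean of at least 0.5, and a call at a Benjamini-Hochberg adjusted p under 0.05. Fold changes on this scale understate low genes. The limma fit and the centring on length and GC content were checked on simulated data with independent genes and no mixture of classes. Relations used 100000 permutations, two-sided. All 7 subunits were described throughout; other listed genes were given values where a class median reached 5 or more, and the 2 entries most like each subunit were named, except for Gabrb1. Some genes of the lists are not reported here. Lengths and GC content came from GENCODE M21, promoters from RefSeq. Depth came from the deposited intervals of entries with 1 transcript of at least 2000 nt and 20 fragments. The labels number libraries within a sex without further detail on the mice, so p-values measure the spread between these libraries. The subunits and gene lists were chosen with earlier results of these data known. The marker values beside the Gabrb2 comparison were added after the data were seen.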

Additional observations from a re-analysis of the deposited data

Results flagged for a closer look

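Each of the 7 subunits was examined in the 10 labelled groups of 6 libraries, giving 70 sets, for a library far from the other 5. The distance was taken from the gap to the nearest library relative to the range of the set, and chance alone would pick out about 1 in 20 sets. A single set had such a library. Gabrb2 in the library labelled striatum Δ12/Δ12 male3 was 51.0 rescaled FPKM, while the other 5 libraries ran from 34.1 to 39.6. That library was cortex-like, as were male1 and male2 of the group.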

How the results depend on the processing

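The settings named below as centring and as fit-specific factors were chosen after seeing the data. For KO/+ in labelled striatum the number of called subunits was 0 in place of 1 with FPKM as deposited, without the filter, without the sex covariate and with the replicate block, and 0 to 1 with single libraries left out. For Δ12/Δ12 in labelled striatum it was 3 with FPKM as deposited and 2 with upper-quartile scaling or with factors from the libraries of the fit, in place of 0, and 0 to 4 with single libraries left out. Of the 14 marker relations, 1 (Gabra3) rather than 2 passed with FPKM as deposited, where Gabra4 had an r of −0.30. The cause was not tested. Same-numbered libraries had mean correlations of −0.07 to 0.03 in the 8 genotype and line comparisons, where they share only a number, and the block changed no other count of subunits by over 1.5 times. Libraries of the same mouse name in the labelled tissues had a mean correlation of 0.13 (range −0.16 to 0.66), over 0.1 in 14 of 30 pairs. Leaving out single libraries gave 6 to 7 subunits in both comparisons of +/+ mice. With FPKM as deposited, class differences ran from −2.01 (Gabra5) to 1.00 (Gabrb1). Counts over all entries moved too. For KO/+ in labelled striatum 1093 entries were called (555 higher), but 306 with FPKM as deposited (23 of them higher), 302 with the replicate block and 560 to 1243 with single libraries left out (560 to 723 without +/+ male1, female1 or female3, or KO/+ female1, female2 or female3). For Δ12/Δ12 in labelled striatum 4381 were called (2278 higher, but 1291 of 4336 with FPKM as deposited), and 2085 without the filter, 2420 after centring, 9 without the sex covariate, 5 with the replicate block and 5 to 6208 with single libraries left out, and in labelled cortex 145 (43 higher) became 90 with a pseudocount of 0.1, 25 without the filter, 225 after centring (115 higher), 10 without the sex covariate, 9 with the block and 12 to 3844 with single libraries left out. For KO/+ in labelled cortex 14 (1 higher) became 110 with FPKM as deposited, 28 without the filter, 22 after centring (4 higher), 0 with the block and 1 to 19 with single libraries left out, and for Δ12/+ in labelled cortex 10 (2 higher) became 6 with the pseudocount, 4 after centring (3 higher), 3 with the block and 5 to 41 with single libraries left out. In labelled striatum Δ12/+ had 1, but 2 without the sex covariate and 0 with the block. Between the +/+ mice, 41.5% (labelled striatum) and 43.7% (labelled cortex) of calls were higher in the KO line with FPKM as deposited, in place of 52.8% and 53.6%. No called subunit changed direction in any setting run. Depth is known only as an estimate, and low levels such as Gabrb1 in the cortex-like class carried the widest intervals.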
